A study of Mus musculus with 46 samples.

Results

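The regions described here are stretches of chromatin far from gene starts that carried acetylation of histone H3 at lysine 27 (H3K27ac) in every H3K27ac library of the study. They were taken from the peak list of adult replicate 1. A region was kept if its midpoint lay over 2500 bp from the start of every gene in the RNA count table and if it overlapped, by at least 1 bp, a peak in each of the other 11 lists. This left 8099 of the 19572 regions of adult replicate 1 (41.4%), or 69.7% of its 11612 distal regions. They are called shared distal regions below. The other 3513 distal regions were missing in at least 1 list. Of the 7958 regions near a gene start, 7198 (90.4%) were in every list and serve as the comparison set. The members were thus chosen by measured H3K27ac peaks of all 12 libraries, so H3K27ac values are given as a description without a test. Open chromatin (ATAC-seq), RNA polymerase II (Rpb2) and RNA were not used by the rule.

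Microglia, the resident macrophages of the brain, came from male C57BL/6 mice, and the study, by its title, asked how their proliferation is tied to transcriptional programs of different contexts. H3K27ac had 2 libraries in each of 6 groups: untreated adults (ages given as 60 and 65 days), Ki67-negative and Ki67-positive cells of postnatal day 8 (PND8), Ki67-negative and Ki67-positive cells of 90-day-old mice after 4 weeks of cuprizone, and Ki67-positive repopulating cells of 90-day-old mice given PLX5622 for 17 days and left to recover for 3 days. Cuprizone is a copper chelator that strips myelin, PLX5622 inhibits the CSF1 receptor and depletes microglia, and Ki67 is a protein of cycling cells. RNA had 2 libraries in each of 5 groups: wild-type adults of 90 days, and Ki67-negative and Ki67-positive cells of Ki67-rfp reporter mice at PND8 and in repopulation at 75 days. ATAC-seq had 1 library each of adult (80 days), PND8 Ki67-positive and repopulating Ki67-positive (75 days) cells; the titles of the latter 2 name the Ki67-rfp reporter, whereas the genotype label of all 3 reads wild type. The cell type label of all adult libraries reads Ki67-negative, while their titles name no sort by Ki67. Rpb2 had 2 adult libraries (60 and 65 days) and 1 of PND8 Ki67-positive cells, and H3K4me3 had 2 adult libraries (75 days). Cells for chromatin immunoprecipitation were fixed and sorted with an antibody to Ki67. The adult H3K27ac and Rpb2 headers carry the word vehicle, for which the labels name no treatment.

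Depth was 15233543 to 22888521 tags per H3K27ac library, and 6865903 to 10287876 counts per RNA library. Adult H3K27ac replicate 1, which supplied the regions, stood apart from the other libraries: 32.6% of its tags lay in peaks, against 45.5% to 69.7% in the other 11. Medians against the adult group are therefore given with and without it. The file headers name each library with a number whose meaning is not given in the sources used here, called the header code below, and libraries of a group often differ in it. All 8 microglial marker genes were above 1 TPM in every RNA library, and their summed level was 3514 to 4628 TPM. Summed markers of neurons (1.15 to 6.29 TPM) and lymphocytes (0.401 to 2.90 TPM) were low in all 10 libraries. Markers of monocytes and neutrophils summed to 112.8 to 376.5 TPM in the adult libraries and 14.1 to 29.5 TPM elsewhere.

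As background, H3K27ac marks active promoters and enhancers. Enhancers are stretches of DNA, often far from any gene start, where transcription factors bind and open the chromatin, and many are themselves transcribed by RNA polymerase II. In microglia and other macrophages such sites are bound by lineage factors, among them PU.1 (Spi1), C/EBP, MEF2, IRF and AP-1 factors. H3K27ac at distal sites is used as a readout of which of these sites are active in a given state of the tissue.

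Some of these regions are distal from the genes of the count table but hold the start of another transcript. RefSeq (GRCm38.p6, the mm10 build of the peak lists) places a transcript start in 499 of them (6.16%), 177 with an alternative start of a gene in the count table and 322 with a start of a gene outside it. Their start windows, 250 bases before to 50 after the start, are the only sequence of these regions at hand. Those of 4 strongly marked regions are printed, 3 that hold letters searched for and 1 that holds none; capitals mark a motif found by exact match on either strand, and the windows and motifs were chosen after values had been seen. Dleu2 is a long noncoding RNA, and its start at chr14:61682324-61682623 (minus strand) lies in a shared distal region with an adult mean H3K27ac level of 1783 normalised tags (scaled to 10000000 tags per library). Its window holds TTGCNNAA (C/EBP) at base 245, the MEF2 letters (CTA and TAG with 4 bases between) at base 265 and GAGGAAGT (PU.1) at base 291, counted from 1 at the 5′ end. Gm14321, a transcript whose region has Cebpb as the nearest gene, starts in chr2:167777241-167777540 (plus strand), with the PU.1 letters at base 197. An alternative start of Mef2c, a lineage factor itself, lies in chr13:83573357-83573656 (plus strand). Its window holds TGAATCA at base 114, a match to the letters TGANTCA searched for AP-1, with any base taken at N. Chaserr, a noncoding RNA beside Chd2, starts in chr7:73558346-73558645 (minus strand) and holds none of the 5 motifs.
Dleu2: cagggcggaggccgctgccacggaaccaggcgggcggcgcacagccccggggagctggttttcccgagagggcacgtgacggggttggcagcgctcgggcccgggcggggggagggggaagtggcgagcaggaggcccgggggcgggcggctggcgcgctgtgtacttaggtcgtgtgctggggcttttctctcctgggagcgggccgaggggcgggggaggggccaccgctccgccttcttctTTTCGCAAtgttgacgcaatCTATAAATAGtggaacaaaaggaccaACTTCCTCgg
Gm14321: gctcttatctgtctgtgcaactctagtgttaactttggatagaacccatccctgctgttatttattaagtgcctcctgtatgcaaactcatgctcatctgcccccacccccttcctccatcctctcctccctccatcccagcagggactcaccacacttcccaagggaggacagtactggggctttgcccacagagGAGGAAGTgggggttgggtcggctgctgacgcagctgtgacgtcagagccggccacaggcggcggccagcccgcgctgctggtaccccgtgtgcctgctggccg
Mef2c: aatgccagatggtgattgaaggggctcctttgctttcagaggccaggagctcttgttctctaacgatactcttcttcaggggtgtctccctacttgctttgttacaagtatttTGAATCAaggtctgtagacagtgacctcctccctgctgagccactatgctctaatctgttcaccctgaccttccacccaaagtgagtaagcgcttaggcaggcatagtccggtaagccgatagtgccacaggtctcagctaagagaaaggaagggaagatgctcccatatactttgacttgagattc
Chaserr: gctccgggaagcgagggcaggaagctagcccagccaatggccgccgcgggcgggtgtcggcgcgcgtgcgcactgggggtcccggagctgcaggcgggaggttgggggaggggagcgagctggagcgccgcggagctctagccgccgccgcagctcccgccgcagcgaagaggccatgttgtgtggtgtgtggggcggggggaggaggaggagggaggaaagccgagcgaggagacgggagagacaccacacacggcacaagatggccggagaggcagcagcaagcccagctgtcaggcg
Chaserr and Dleu2 have windows rich in G and C (72.3% and 69.0%), with 30 and 29 CpG pairs, whereas the Mef2c window has 48.3% and 4.

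Across the 594 start windows inside shared distal regions, the PU.1 letters GAGGAAGT stood in 5.72%, against 3.20% of all 32851 RefSeq windows of the same length. TGANTCA was in 9.60% against 7.81%, TTGCNNAA in 11.1% against 10.8%, the IRF letters (GAAA repeated after 2 bases) in 5.05% against 3.44%, and the MEF2 letters in 3.70% against 3.69%. Any base was taken at N, both strands were searched, and motifs may overlap each other. Median GC content was 54.3% in these windows and 52.7% in all. These are matches of letters, not measured binding.

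A further 20 shared distal regions overlap 25 miRNA hairpins. The mature sequences of 3 of these loci follow, with the seed (bases 2 to 8) in capitals; they were chosen after values had been seen, as well-known miRNAs and not by level, and the regions of Mir7687 and Mir760 had higher adult means than most of them (948.6 and 718.8 normalised tags).
miR-142a-3p: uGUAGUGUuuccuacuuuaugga
miR-142a-5p: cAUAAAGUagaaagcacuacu
miR-23a-3p: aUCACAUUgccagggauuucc
miR-27a-3p: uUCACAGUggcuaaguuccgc
let-7i-5p: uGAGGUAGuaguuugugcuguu
No seed is shared among these 5. The miR-142 hairpin, a miRNA gene of blood-cell lineages, lies in chr11:87755931-87758146, nearest to Tspoap1. That region had 627.8 and 1046.8 normalised tags in the adult libraries and 601 to 1017.3 in the other 10. In all other 11 lists the peak there also covers a neighbouring shared distal region. It also had H3K4me3, the mark of promoters, at 1320.6 and 1405.5 normalised tags. The hairpins of miR-23a and miR-27a lie in chr8:84207193-84208844, nearest to Zswim4, with that of the clustered miR-24-2 across its end, and let-7i in chr10:122984832-122986928, nearest to Mon2.

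Shared distal regions were wide and strong. Their median width was 1649 bp (500 to 8221), against 638 bp for the other distal regions. In adult replicate 1 their median level was 120.1 normalised tags, against 23.2 for the other distal regions and 136.7 for the regions near a start. The median distance to the nearest gene start was 24447 bp, 76.7% lay over 10000 bp away and 1003 lay over 100000 bp away. A total of 4531 (55.9%) lay within a gene, and 3503 within the very gene whose start was nearest. The other distal regions lay as far out, at a median of 24940 bp. The narrowest shared regions are single windows of 500 bp that can overlap a much wider peak in another library, and 553 (6.83%) shared a peak of another list with a second member. Peak lengths are given for the regions where they differed most between libraries.

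The regions had 3966 nearest genes, of which 2208 had 1 region, 314 had 5 or more and 42 had 10 or more. The gene with most was Zfhx3, a homeobox factor, with 17. Foxn3, Etv6 and Rreb1, all transcription factors, followed with 16 each, and Zfp36l2, Elmo1 and Smad7 with 15. The TGF-beta receptor Tgfbr2 had 14, and the microglial factors Mef2c and Sall1 had 12 each. Nearest gene means only the shortest distance; no measurement here ties a region to the gene it acts on.

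The rule has 2 limits. Just over the distance limit stood regions of Sept9 (2502 bp), Creg1 (2503 bp), Amz1 (2509 bp), Mpeg1 (2511 bp) and Abhd17a (2512 bp), and just under it regions of Pde4a (2500 bp), Cerk (2491 bp), Olfml3 (2485 bp), Usp7 (2481 bp) and Gm13283 (2480 bp). The Cerk region was strong all the same, with 1531.8 and 2642.9 normalised tags in the adult libraries. Missing in 1 list were 1217 distal regions, among them 337 missing only in repopulating replicate 2, 223 only in cuprizone Ki67-positive replicate 1 and 171 only in cuprizone Ki67-negative replicate 1. A Zeb2 region of this kind, chr2:45194529-45195029, had 72.5 and 1641.1 normalised tags in the adult libraries and no peak in cuprizone Ki67-negative replicate 2.

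The level of a region is the sum of the deposited Normalized Tag Counts (scaled to 10000000 tags per library) of the peaks that overlap it. The median over the 8099 regions was 120.1 and 255.1 in the 2 adult libraries. It was 175.5 and 186.2 in PND8 Ki67-negative and 161.7 and 214.2 in PND8 Ki67-positive cells. Cuprizone gave 262.8 and 296.7 in Ki67-negative and 235.0 and 270.0 in Ki67-positive cells, and repopulation 201.4 and 262.5. Adult replicate 1 lay below all other libraries and adult replicate 2 among them, with 4 of the other 10 above it, and the standard deviation of their log2 medians was 0.77. For this reason levels were also centred: from each log2 level the library's median over the 15297 regions of adult replicate 1 in every list was taken away. Centred values say how a region stood against the other regions of its library.

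**Figure D1:**
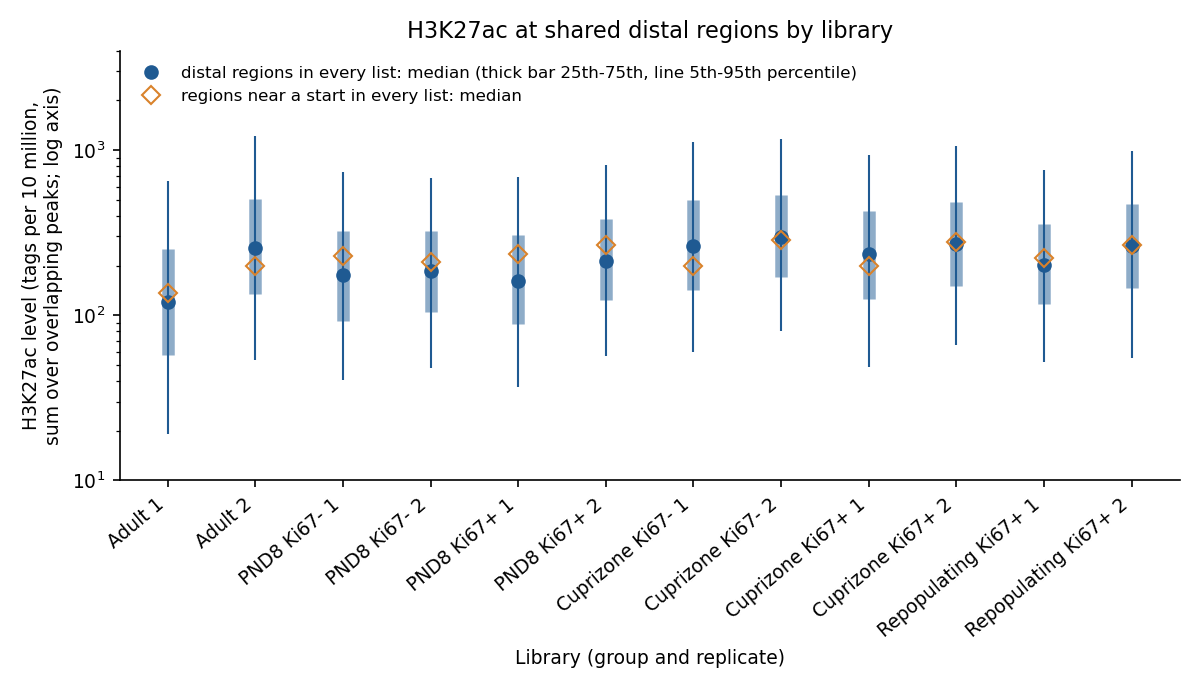
H3K27ac level at the 8099 shared distal regions in each of the 12 libraries, in tags scaled to 10000000 per library on a log axis: the blue point is the median, the thick bar the 25th to 75th and the thin line the 5th to 95th percentile, and the orange diamond the median of the 7198 regions near a gene start. Adult replicate 1 has the lowest median (120.1), and the diamond lies above the point in adult replicate 1, all 4 PND8 libraries, cuprizone Ki67-positive replicate 2 and both repopulating libraries.

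The balance between distal and near regions differed between libraries. The ratio of the median distal level to the median near level was 0.689 to 0.890 in the 4 PND8 libraries, 0.911 and 0.990 in repopulation, and 0.972 to 1.33 in the 4 cuprizone libraries. The adult libraries gave 0.879 and 1.28, so replicate 1 lay among the PND8 libraries and replicate 2 above them. Within a library the regions kept much of their order: Pearson's r of log2 level over the regions was 0.875 to 0.953 (median 0.948) for the 6 pairs of replicates and 0.660 to 0.931 (median 0.784) for the 60 pairs from different groups. All points share the region set and its widths, so r is given as a description.

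Presence in every list did not mean an even level. After centring, the range of a region over the 12 libraries had a median of 1.51 on the log2 scale, against 1.11 for the near regions, and 2354 regions (29.1%) had a range over 2. The steadiest was a region of Wdr26, chr1:181255421-181258125, with a range of 0.22. Its levels were 311.1 and 596.8 in adults, 495.9 to 590.4 in the 4 PND8 libraries, 560.6 to 679.8 in the 4 cuprizone libraries and 575.4 and 672.6 in repopulation. Regions of Nod2 (0.27), Rai1 (0.29), Ghrl (0.31) and Dnali1 (0.31) followed.

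At PND8 the shared distal regions stood lower against adults than the regions near starts did. The median centred difference from adult was -0.24 on the log2 scale in Ki67-negative and -0.32 in Ki67-positive cells, whereas the near regions stood at 0.14 and 0.18. Among the distal regions, 3591 (44.3%) were lower in both PND8 Ki67-negative libraries than in either adult library and 1582 (19.5%) were higher. Over all 15297 regions in every list the shares were 32.1% lower and 27.7% higher. In Ki67-positive cells 3920 (48.4%) were lower and 1545 (19.1%) higher, against 34.4% and 29.4% of all regions. The near regions had 18.4% lower and 36.8% higher in Ki67-negative cells. Centring on both sets together ties one to the other, so that the near regions stand higher when the distal ones stand lower. Without adult replicate 1 the distal medians were -0.34 and -0.42 and the near medians 0.28 and 0.32. Without adult replicate 2 they were -0.15 and -0.22 for distal regions and -0.02 and 0.03 for near regions.

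As deposited, without centring, the same differences were near 0: -0.018 in Ki67-negative and 0.031 in Ki67-positive cells. Both signs depended on the adult library: without adult replicate 1 the medians were -0.533 and -0.482, and without adult replicate 2 they were 0.489 and 0.548. The counts then were 1805 lower and 1361 higher in Ki67-negative cells (all regions 15.4% and 30.4%), and 1496 lower and 1473 higher in Ki67-positive cells (all regions 12.4% and 36.7%). The share of higher regions among those that did not overlap was 43.0% and 49.6% as deposited, and 30.6% and 28.3% after centring. Within header code 190118, which has 1 adult and 1 PND8 library of each kind, the centred medians were -0.30 and -0.38.

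In cuprizone-treated mice the shared distal regions stood close to their adult place. The median centred difference was -0.02 in Ki67-negative cells (near regions -0.12) and -0.14 in Ki67-positive cells (near regions -0.07). In Ki67-negative cells 2357 regions (29.1%) were lower and 1974 (24.4%) higher, against 28.2% and 21% of all regions. In Ki67-positive cells 3128 (38.6%) were lower and 2080 (25.7%) higher, against 34.7% and 25.6%. As deposited most differences pointed up, with 3499 higher and 136 lower in Ki67-negative cells (all regions 43.2% and 1.24%) and 2731 and 684 in Ki67-positive cells (37.9% and 5.9%). The share of higher regions among those that did not overlap was 96.3% and 80.0% as deposited, and 45.6% and 39.9% after centring. As deposited the medians were 0.581 in Ki67-negative and 0.370 in Ki67-positive cells, 0.0486 and -0.141 without adult replicate 1, and 1.10 and 0.886 without adult replicate 2. The order of distal and near regions after centring turned with the adult library too. Without adult replicate 1 the distal and near medians were -0.14 and 0.02 in Ki67-negative and -0.23 and 0.07 in Ki67-positive cells. Without adult replicate 2 they were 0.08 and -0.26, and -0.04 and -0.22. No cuprizone library shares a header code with an adult library, so code and treatment cannot be told apart.

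In repopulating Ki67-positive cells the median centred difference was -0.20, against 0.01 for near regions. A total of 3436 regions (42.4%) were lower and 2034 (25.1%) higher, against 36.4% and 28.6% of all regions. As deposited 2313 were higher and 877 lower (all regions 39.6% and 8.25%), so the share of higher regions was 72.5% as deposited and 37.2% after centring. The median as deposited was 0.265, with -0.251 without adult replicate 1 and 0.786 without adult replicate 2. Without adult replicate 1 the centred medians were -0.30 for distal and 0.15 for near regions. Without adult replicate 2 they were -0.10 and -0.14, which turned the order. Within header code 190118 the distal median was -0.31. All 5 comparisons above share the 2 adult libraries and are not independent of each other.

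**Figure D2:**
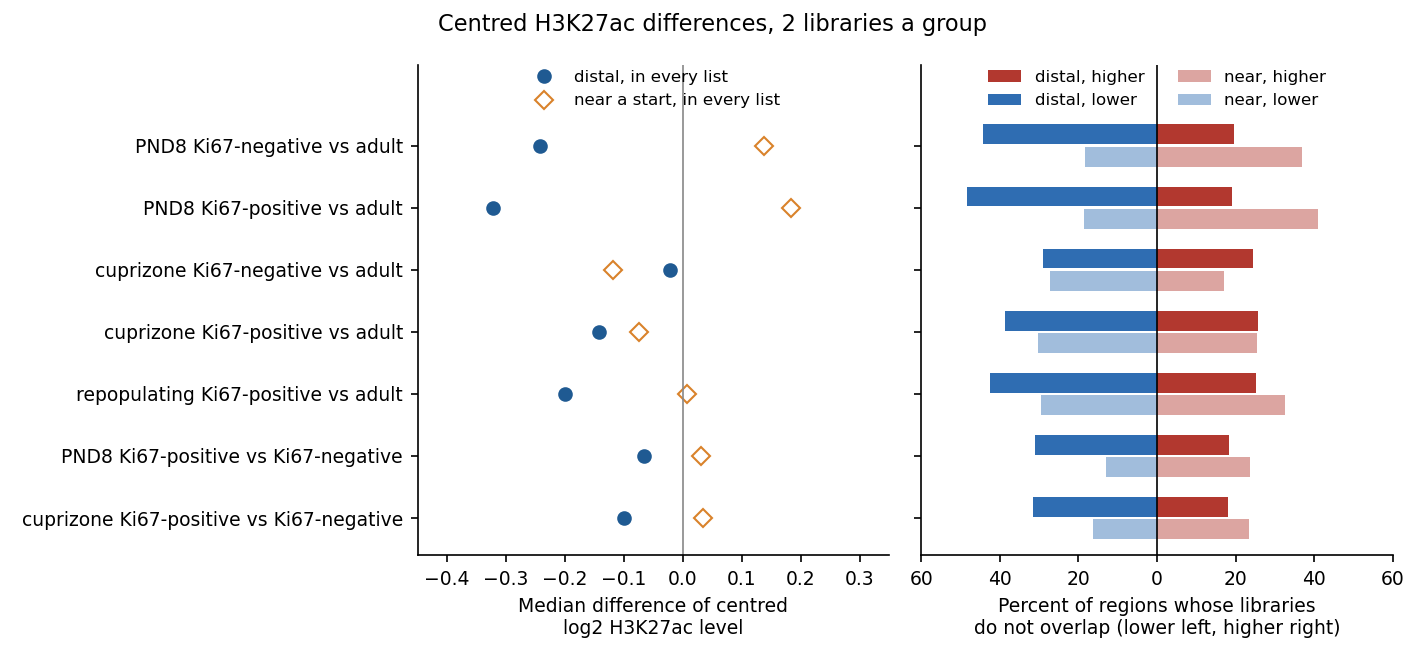
Left, median difference in centred log2 H3K27ac level for 7 comparisons, blue for the 8099 shared distal regions and orange for the 7198 regions near a start; right, percent of regions whose libraries did not overlap between the groups, lower to the left and higher to the right, dark for distal and pale for near regions. The distal median lies below the near median in 6 of 7 comparisons, the exception being cuprizone Ki67-negative cells against adult (-0.02 and -0.12).

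Between Ki67-positive and Ki67-negative cells of the same context the differences were small. The median centred difference was -0.07 at PND8 (near regions 0.03) and -0.10 in cuprizone (near regions 0.03). At PND8, 2523 regions (31.2%) were lower and 1475 (18.2%) higher in the Ki67-positive cells, against 22.6% and 20.8% of all regions. In cuprizone 2555 (31.5%) were lower and 1471 (18.2%) higher, against 24.4% and 20.6%. As deposited the split was 1906 higher and 1100 lower at PND8 (all regions 29.4% and 8.74%), and 865 higher and 3683 lower in cuprizone (7.98% and 30.5%). Both kinds of cells have 1 library with each header code, and within codes the centred differences were -0.06 and -0.07 at PND8 and -0.11 and -0.09 in cuprizone. These 2 comparisons share no library. A total of 1196 regions were lower and 567 higher in Ki67-positive cells of both contexts, 234 were lower at PND8 and higher in cuprizone, and 192 the reverse. Without cuprizone Ki67-negative replicate 1 the medians were -0.02 for distal and -0.04 for near regions, and without Ki67-positive replicate 2 -0.02 and -0.01. Without the other library of either kind they were -0.19 and 0.12, and -0.17 and 0.11. At PND8 they were -0.04 and -0.03 without Ki67-positive replicate 1, and -0.04 and -0.04 without Ki67-negative replicate 2. Without Ki67-positive replicate 2 they were -0.09 and 0.11, and without Ki67-negative replicate 1 -0.10 and 0.10.

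The gene lists below are read against all 8099 shared distal regions after centring. Of those, 44.3% were lower and 19.5% higher in PND8 Ki67-negative cells, 48.4% and 19.1% in PND8 Ki67-positive, 29.1% and 24.4% in cuprizone Ki67-negative, 38.6% and 25.7% in cuprizone Ki67-positive, and 42.4% and 25.1% in repopulating cells. A count near these shares says nothing about a list, and no list was tested. Single regions named from a list were taken from those with the highest adult level in it. That choice favours lower values elsewhere, so a lower level at such a region is given as a description only. The regions of homeostatic microglial genes, the set that marks resting adult microglia, had few higher values. Of 24 such genes in the count table, 20 had a shared distal region nearest to them, 80 regions in all. Of these, 43 were lower and 3 higher in PND8 Ki67-negative cells, 45 and 6 in PND8 Ki67-positive cells, and 40 and 6 in repopulation, with median centred differences of -0.54, -0.61 and -0.53. In cuprizone 24 were lower and 7 higher in Ki67-negative cells (median -0.11), and 36 and 7 in Ki67-positive cells (-0.37). The medians over all shared distal regions were -0.24, -0.32 and -0.20 at PND8 and in repopulation and -0.02 and -0.14 in cuprizone, so the list lay below them, while in cuprizone Ki67-negative cells its share of lower regions was near that of all.

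P2ry13 encodes a purinergic receptor of microglia. Its strongest region, chr3:59204751-59210292, lies 3361 bp downstream of the start and within Med12l. It had 1861.2 and 3103.5 normalised tags in adults, 1071.4 to 1471.4 in the 4 PND8 libraries, 1956.4 to 2505.5 in the 4 cuprizone libraries, and 1058.2 and 2412.8 in repopulation. The centred difference was -1.28 in PND8 Ki67-negative cells and -1.05 in repopulation, where the 2 libraries differed more from each other than in any other group. Tgfbr1, a receptor for the cytokine TGF-beta that microglia need for their identity, has a region 37971 bp upstream, chr4:47313246-47317256. Its level was 1426.5 and 3005.3 in adults and 912.7 to 1232.4 at PND8, and it was also lower in repopulation (1272.1 and 1355.1). In adult replicate 2 the peak is 5999 bp long, against 4010 bp in replicate 1, and also covers a second member.

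Regions of lineage transcription factors gave counts near the shares of all shared distal regions in the Ki67-positive cells of PND8 and cuprizone. The 24 genes of this list that had a shared distal region had 129 of them. Lower and higher numbered 69 and 15 in PND8 Ki67-negative cells, 63 and 17 in PND8 Ki67-positive cells, 47 and 25 and then 48 and 33 in cuprizone Ki67-negative and Ki67-positive cells, and 61 and 28 in repopulation. Junb, a subunit of AP-1, had the strongest of all shared distal regions, chr8:84978842-84986142, 3744 bp upstream. It had 2850.8 and 5466.5 normalised tags in adults, 2333 to 3627.6 at PND8, 3963.6 to 5021.3 in cuprizone, and 3184.1 and 3897.4 in repopulation. Spi1, which encodes PU.1, had the next, chr2:91081578-91087560, 12109 bp upstream, with 2637.1 and 4236.9 in adults, 2246.2 to 2823.5 at PND8, 2638.9 to 3545.7 in cuprizone, and 2270.5 and 2376.5 in repopulation. Its levels overlapped between groups as deposited at PND8, and were lower in all 5 comparisons with adult once centred (-0.55 to -0.99). The Mef2c region that holds the printed start window, chr13:83571057-83575120, had 1480.2 and 1901.3 in adults, 697.7 to 923.5 at PND8, 731.4 to 1320.2 in cuprizone, and 528.2 and 1012.2 in repopulation. The adult libraries were above all 10 others. Lower centred values in all 5 comparisons with adult were shared by the 10 regions with the highest adult level, nearest to Junb, Spi1, Plek, Eed, Irf5, Hs1bp3, Prpf40b, Rhoh, Ski and Efhd2. They were picked for a high adult level, which favours lower values elsewhere, so nothing is read from this.

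Regions of lysosomal and phagocytic genes were mostly lower at PND8 and stood near their adult place in cuprizone. Of 47 regions at 16 genes, 33 were lower and 3 higher in PND8 Ki67-negative cells (median -0.69), 32 and 6 in PND8 Ki67-positive cells (-0.66), 16 and 13 in cuprizone Ki67-negative cells (-0.04), 19 and 11 in cuprizone Ki67-positive cells (-0.14), and 22 and 10 in repopulation (-0.26). Ctsd, the protease cathepsin D, has a region 11316 bp upstream, chr7:142396902-142401385, with 1516.5 and 2489.5 in adults, 1004.6 to 1083.8 at PND8, 1912.1 to 2409.1 in cuprizone, and 856.8 and 951.8 in repopulation. Cd9, a tetraspanin, has one 48242 bp downstream, chr6:125444611-125448426, with 650.5 and 1105.5 in adults, 337.5 to 502.8 at PND8, and 985.3 and 1637.5 in repopulation. Unlike Ctsd it was not below adult in repopulation, where its libraries overlapped the adult ones.

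NF-kB and cytokine genes had 39 regions at 14 genes. Of these, 26 were lower and 6 higher in each of the PND8 groups, 19 and 8 in cuprizone Ki67-negative cells, 18 and 9 in cuprizone Ki67-positive cells, and 24 and 8 in repopulation. Tnfaip3, a brake on NF-kB, has a region 47630 bp upstream, chr10:19060856-19065225, with 1468 and 1868.4 in adults, 816.2 to 992.9 at PND8, 997.2 to 1318.2 in cuprizone, and 786.9 and 1127 in repopulation. Both adult libraries were above all 10 others, at a region named for its high adult level. Il10ra, the receptor for the cytokine IL-10, has one at chr9:45244706-45248121 with 1669.8 and 2696 in adults, 1250.3 to 1546.9 at PND8, 1385.8 to 2188.7 in cuprizone, and 1226.7 and 1343.9 in repopulation. Actin and motility genes had 51 regions at 14 genes, with 27 lower and 4 higher in PND8 Ki67-negative cells and 13 lower and 15 higher in repopulation.

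Among markers of other cell types, 4 of 8 astrocyte genes (Slc1a3, Gja1, Slc1a2 and Sox9) had a shared distal region, 7 regions in all. Slc1a3 alone had 4 of the 7 astrocyte regions. No astrocyte region was higher than adult in any of the 5 comparisons. Lower were 4 in PND8 Ki67-negative, 6 in PND8 Ki67-positive, 1 in cuprizone Ki67-negative, 6 in cuprizone Ki67-positive and 6 in repopulating cells, with median centred differences of -1.28, -1.57, -0.33, -0.98 and -1.66. RNA of these genes did not follow: 1 of 3 tested, Gja1, rose in each PND8 group, none changed in repopulation, and none fell (edgeR's quasi-likelihood test). Regions of other cell types went both ways: 4 of 8 endothelial genes had 6 regions, and 3 of 10 oligodendrocyte genes had 6. In PND8 Ki67-negative cells each of these 2 lists had 3 lower and 1 higher. In repopulation 2 endothelial regions were lower and 3 higher, and 3 oligodendrocyte regions were lower and 1 higher. The part of other cells in the H3K27ac differences was not tested.

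Genes of disease-associated microglia, a state seen around damaged myelin and plaques, went another way in cuprizone. Of 15 such genes, 5 (33.3%) had a shared distal region, 6 regions in all. This compares with 18.9% of all genes in the count table and 30.0% of those with over 10 counts in every RNA library. Of the 6 regions, 5 were higher and none lower in each cuprizone group, with medians of 1.07 and 1.41. Csf1, a growth factor for microglia, has one at chr3:107781681-107784516 with 135 and 233.9 in adults, 243.9 and 285.5 in PND8 Ki67-negative, 129.3 and 229.4 in PND8 Ki67-positive, 472.7 to 727.2 in cuprizone, and 59.2 and 182.6 in repopulation. Cuprizone levels were above all others. Fabp5, a fatty acid binding protein, has one at chr3:10025276-10026179 with 35.4 and 43.5 in adults, 91.6 to 157.1 at PND8, 118.9 to 248.4 in cuprizone, and 29.3 and 30.2 in repopulation. PND8 and cuprizone libraries were thus above the adult and repopulating ones. Lgals3, a galectin, has one at chr14:47359381-47362653 with 194 and 465.2 in adults and 751.1 to 896.5 in cuprizone, above all other libraries. Itgax, an integrin, was the exception: chr7:128132610-128134506 had 165.6 and 273.9 in adults, 101.5 to 155 at PND8 and 244.4 to 371.4 in cuprizone, where it overlapped adult after centring.

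Cell cycle genes mostly had no shared distal region. Of 36, 9 (25%) had one, 20 regions in all, against 18.9% of all genes in the count table and 30.0% of those with over 10 counts in every RNA library. Of the 20, 9 were lower and 4 higher in PND8 Ki67-negative cells and 8 lower and 7 higher in repopulation, and the first of these pairs lies near the 44.3% and 19.5% of all shared distal regions. Ki67-positive cells had 7 higher and 5 lower than Ki67-negative cells at PND8. Aurkb, a mitotic kinase, has a region within Ctc1, chr11:69030710-69034459, with 627.8 and 1595 in adults, 1059.7 and 1111.4 in PND8 Ki67-negative, 796.3 and 1030.9 in PND8 Ki67-positive, 1566.6 and 1550.3 in cuprizone Ki67-negative, 1049.7 and 1206.5 in cuprizone Ki67-positive, and 752.3 and 972.7 in repopulating cells. In both contexts the Ki67-positive libraries were below the Ki67-negative ones. E2f2, a factor of the G1 to S transition, has one at chr4:136184153-136187090 with 625.2 and 834.7 in adults and 351 to 483 at PND8, all below adult. Complement had 2 regions: that of C5ar1, chr7:16253626-16255806, was lower in all 5 comparisons with adult, and that of C3ar1, chr6:122862750-122863250, a 500 bp region, was higher in all 5. The C3ar1 peak was 500 and 1595 bp long in adults and 1692 to 2276 bp in the other 10 lists, and per kb the centred differences were 0.31 to 0.87. Interferon genes had 4, among them regions of Zbp1 and Cxcl10.

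Wide differences at single regions were found at PND8. Tgm2, a transglutaminase, has 4 shared distal regions, and all were lower at PND8. The strongest, chr2:158173358-158176700, 28637 bp upstream, had 742.7 and 1116.2 in adults, 313.8 and 308.1 in PND8 Ki67-negative, 513.1 and 517.5 in PND8 Ki67-positive, 745.7 to 897.3 in cuprizone, and 948.2 and 1104.2 in repopulating cells. The next, chr2:158166092-158167598, had 269.6 and 442.4 in adults and 56.6 to 133.7 at PND8. In all 4 regions both Ki67-positive libraries of PND8 were above both Ki67-negative ones, by 0.24 to 1.75 after centring. Chsy1, an enzyme of chondroitin sulfate synthesis, has a region 87400 bp downstream, chr7:66195932-66197852, with 167.3 and 360.4 in adults, 15.2 to 44.1 at PND8, 118.8 to 234.4 in cuprizone, and 44.2 and 34.8 in repopulation. Its centred difference was -3.13 and -4.01 at PND8 and -3.11 in repopulation. Adtrp, which encodes a lipid hydrolase, has one at chr13:41803197-41805529 with 301.5 and 477.3 in adults, 31.6 and 54.3 in PND8 Ki67-negative, and 125.4 and 125.6 in PND8 Ki67-positive cells.

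Higher at PND8 was a region of Gpx3, a secreted glutathione peroxidase, 18412 bp downstream at chr11:54920826-54921707. It had 33.2 and 75.9 in adults, 211.7 to 288.8 at PND8, 147.9 to 206.2 in cuprizone, and 84.8 and 110.1 in repopulation, so both adult libraries were below all 10 others. Sept9, a septin of the cytoskeleton, and Gas7, an actin-binding protein, had larger values at regions of 500 bp. The Sept9 region, chr11:117334306-117334806, had 12.7 and 58.2 in adults and 472.2 to 622.3 at PND8. The Gas7 region, chr11:67479825-67480325, had 14 and 44 in adults, 195 to 371.7 at PND8, and 551.5 and 740.5 in repopulation. Both overlap much longer peaks outside the adult: at Sept9 the peak was 500 bp and 1281 bp long in adults and 3576 to 3667 bp at PND8, and at Gas7 it was 500 and 1087 bp in adults, 2169 to 3869 bp at PND8, and 3289 and 3196 bp in repopulation. Per kb of peak the centred differences were smaller, 1.84 and 2.09 against 3.90 and 4.12 at Sept9, and 1.19 and 1.23 against 2.82 and 3.31 at Gas7. In repopulation the centred difference at Gas7 was 4.22, wider than at PND8, and 2.3 per kb. Csmd3, a large membrane protein, has 2 regions whose adult replicates differed widely (192.2 and 611 at chr15:48837241-48840270), against 75.5 to 204.2 at PND8. The other, chr15:48903823-48905118, overlapped adult in both PND8 groups after centring.

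Open chromatin was present at nearly all shared distal regions. An ATAC-seq peak overlapped 94.5% of them in the adult library, 91.9% in the PND8 Ki67-positive and 94.7% in the repopulating library. The other distal regions had 69.7%, 60.7% and 69.3%, and the near regions 96.7%, 96.5% and 97.2%. The shared distal regions were also wider than the other distal ones (median 1649 against 638 bp), which leaves more room for an overlap. The part of width in these shares was not tested. All 3 libraries had a peak at 7338 regions (90.6%), none had one at 316 (3.90%), and 216 had one in adult and repopulating cells but not at PND8. With 1 library per group these are single measurements. The regions with the highest adult ATAC level were nearest to Fat3, Plek, Zbtb20, Rgs2 and Sertad2. At Plek, a platelet and leukocyte kinase substrate, chr11:17000442-17008663 had 844.7 normalised tags in the adult, 371.5 in the PND8 and 732.6 in the repopulating library. Its H3K27ac level was 3040.8 and 3832.5 in adults, 1315.1 to 1961.2 at PND8, and 1871.4 and 2706.4 in repopulation.

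Over the 7338 regions, the ATAC level at PND8 against adult had a median log2 ratio of -0.65, and -0.60 over all 16748 regions of adult replicate 1 with a peak in all 3 lists. Past 2-fold, 46 were higher (0.627%) and 1971 lower (26.9%), against 0.687% and 21.5% of all. Once the median over all was taken away the ratio was -0.06, with 268 higher (3.65%) and 518 lower (7.06%), against 3.93% and 5.19% of all. In repopulating cells the ratio was -0.30 (all -0.34), with 161 higher (2.19%) and 635 lower (8.65%), against 1.92% and 8.43% of all. Centred it was 0.04, with 383 higher (5.22%) and 220 lower (3.00%), against 4.67% and 2.8% of all. All regions include the shared distal ones. The near regions passed 2-fold less often in either direction. Of them 12.6% were lower at PND8 and 5.73% in repopulation, and centred 1.46% and 1.11%. The share of all tags in peaks was 43.6% in the adult, 31.3% in the PND8 and 39.3% in the repopulating library, and its part in the ratios was not tested.

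Taken as sets, regions with higher or lower H3K27ac tended to differ in the same direction in ATAC. The median centred ATAC ratio at PND8 was 0.16 at the 1356 regions with higher H3K27ac, -0.15 at the 3739 with lower H3K27ac and -0.03 at those that overlapped. In repopulation it was 0.25 (1736 regions), -0.05 (3310) and 0.03. Across regions Pearson's r between the centred differences of the 2 assays was 0.301 and 0.281, over regions that share width and sequence. At PND8 the strongest Tgm2 region differed less in ATAC than in H3K27ac, with 322 normalised tags in the adult and 290 in the PND8 library. In the repopulating library its ATAC level was 401.9, above the adult.

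Rpb2 peaks were found at a part of the regions. They overlapped 42.2% and 24.1% of the shared distal regions in the 2 adult libraries and 73.2% in the PND8 library. Other distal regions had 11.4%, 3.07% and 32.4%, and near regions 84.3%, 73.7% and 95.7%. As for ATAC, the part of region width in these shares was not tested. The share was larger where H3K27ac was higher: from the 2025 regions with the lowest to the 2025 with the highest adult H3K27ac level it went from 21% to 67.4% in adult replicate 1, from 7.41% to 50.3% in adult replicate 2 and from 59.6% to 82.6% at PND8. ATAC peaks in adults went from 86.1% to 98.5%, and median width from 842 to 2646 bp, over the same sets. H3K4me3 overlapped 32.7% and 34.4% of the shared distal regions, against 98.2% and 98.3% of near regions. Apart from the 499 regions with a RefSeq start the shares were 29.6% and 31.4%.

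**Figure D3:**
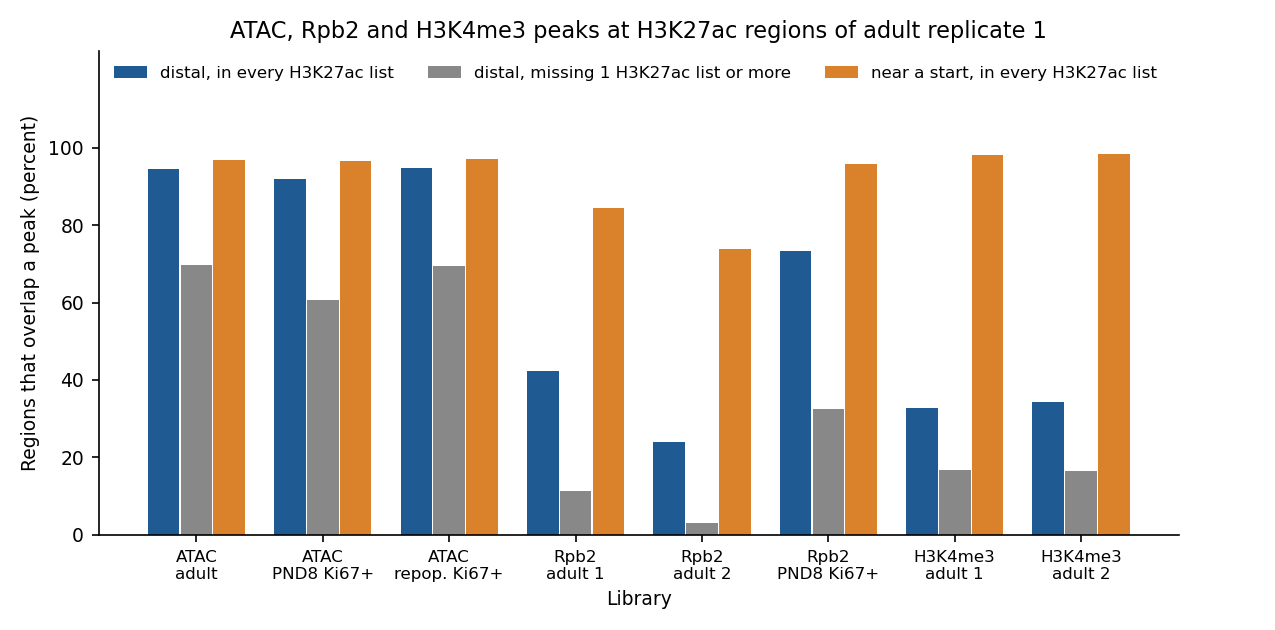
Percent of regions that overlap a peak of ATAC-seq (adult, PND8 and repopulating cells), Rpb2 (2 adult libraries and PND8) and H3K4me3 (2 adult libraries), blue for shared distal regions, grey for distal regions missing in at least 1 H3K27ac list and orange for regions near a start in every list. ATAC shares of shared distal regions (91.9% to 94.7%) are close to those of near regions, whereas Rpb2 and H3K4me3 shares lie between the grey and the orange bars.

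Over the 1626 regions with an Rpb2 peak in all 3 lists, the level at PND8 against the adult mean had a median log2 ratio of 0.39, and 0.47 over all 6826 such regions. Past 2-fold, 352 were higher (21.6%) and 56 lower (3.44%), against 25.3% and 2.14% of all. Centred the ratio was -0.08, with 6.21% higher and 12.3% lower (all 9.24% and 8.73%). Without adult replicate 2 the ratio as deposited was -0.23, so its sign rested on that library. The share of all tags in Rpb2 peaks was 6.78% and 3.19% in the adult libraries and 8.57% at PND8, in the same order as the shares of regions with a peak. The centred ratio was 0.40 at the 153 regions with higher H3K27ac in PND8 Ki67-positive cells and -0.22 at the 1100 with lower H3K27ac. Highest in adult Rpb2 were regions nearest to Mascrna, Mid1, Plek, Sirt4 and Tex14. The Plek region had 620.4 and 255.0 normalised tags in adults and 459.3 at PND8, and the Spi1 region 213.7, 145.5 and 41.4.

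RNA was tested for the genes nearest to a shared distal region with edgeR's quasi-likelihood test, fitted over all 12230 genes with Benjamini-Hochberg adjustment at 0.05. The labels do not say whether libraries came from separate animals, so p-values measure only the spread between these libraries. In such bulk samples fewer cells of a type and less RNA per cell cannot be told apart. Of 3447 nearest genes tested, 1059 fell (30.7%) and 692 rose (20.1%) in PND8 Ki67-negative cells against adult, where 21.4% of all genes fell and 25.4% rose. In PND8 Ki67-positive cells 1211 fell (35.1%) and 703 rose (20.4%), against 24.3% and 25.1%. In repopulating Ki67-positive cells 952 fell (27.6%) and 802 rose (23.3%), against 21% and 23.9%. Of the 804 tested genes nearest to another distal region and to no shared one, 25.9% fell and 21.4% rose in PND8 Ki67-negative cells, and 29.0% and 21.4% in PND8 Ki67-positive cells. Summed astrocyte markers were 86.5 and 88.3 TPM in adults, 33.1 and 155.1 in PND8 Ki67-negative, 22.2 and 135.2 in PND8 Ki67-positive and 141.7 to 191.2 in repopulating libraries, so they differed within groups of PND8. Oligodendrocyte markers summed to 87.0 to 130 TPM and endothelial ones to 15.7 to 38.9 TPM over the 10 libraries. Summed monocyte and neutrophil markers, of which 1 of 10 was under 1 TPM in every library, were higher in the adult libraries (112.8 to 376.5 TPM against 14.1 to 29.5), and the part of any of these markers in the counts was not tested. The adult RNA libraries are wild type and share a header code of their own, so code, reporter and age cannot be told apart. Between Ki67-positive and Ki67-negative cells of PND8, 124 fell (3.60%) and 76 rose (2.20%), against 3.15% and 2.75%. That sum of 200 was 94 with only these 2 groups in the fit and 347 with the header code added to that fit. It was 350 when Ki67-negative replicate 1 was left out, and 117 and 46 when replicates 1 and 2 of the Ki67-positive cells were. The excess of falls was not stable: 52 rose and 42 fell with only the 2 groups. The direction also turned in the fits without Ki67-negative replicate 1 or without either Ki67-positive replicate. The fit without Ki67-negative replicate 2 is not given here. The excess of falls in repopulation was also not stable: without its replicate 2, 588 rose and 587 fell, and at a fold of at least 2, 263 rose and 183 fell.

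At PND8 the share of genes that fell against adult grew with the number of shared distal regions nearest to them. In PND8 Ki67-negative cells it was 17.7% of 8783 genes with none, 24.6% of 1828 with 1, 35.3% of 1314 with 2 to 4, 46.2% of 264 with 5 to 9 and 58.5% of 41 with 10 or more. The share that rose went from 27.5% to 0 over the same classes. In PND8 Ki67-positive cells the share that fell went from 20.1% to 58.5%. In repopulation it was 18.4%, 24.4%, 29.1%, 40.5% and 39.0%, with no further growth in the last class. Between Ki67-positive and Ki67-negative cells of PND8 it did not grow (2.97%, 3.67%, 3.96%, 1.89% and 0). Median adult RNA rose with the number of regions too, from 29.9 CPM to 56.3, 124, 244 and 406, and its part in the trend was not tested. CPM here are counts of the tested genes scaled to library sizes adjusted by TMM. The regions were drawn from an adult list.

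**Figure D4:**
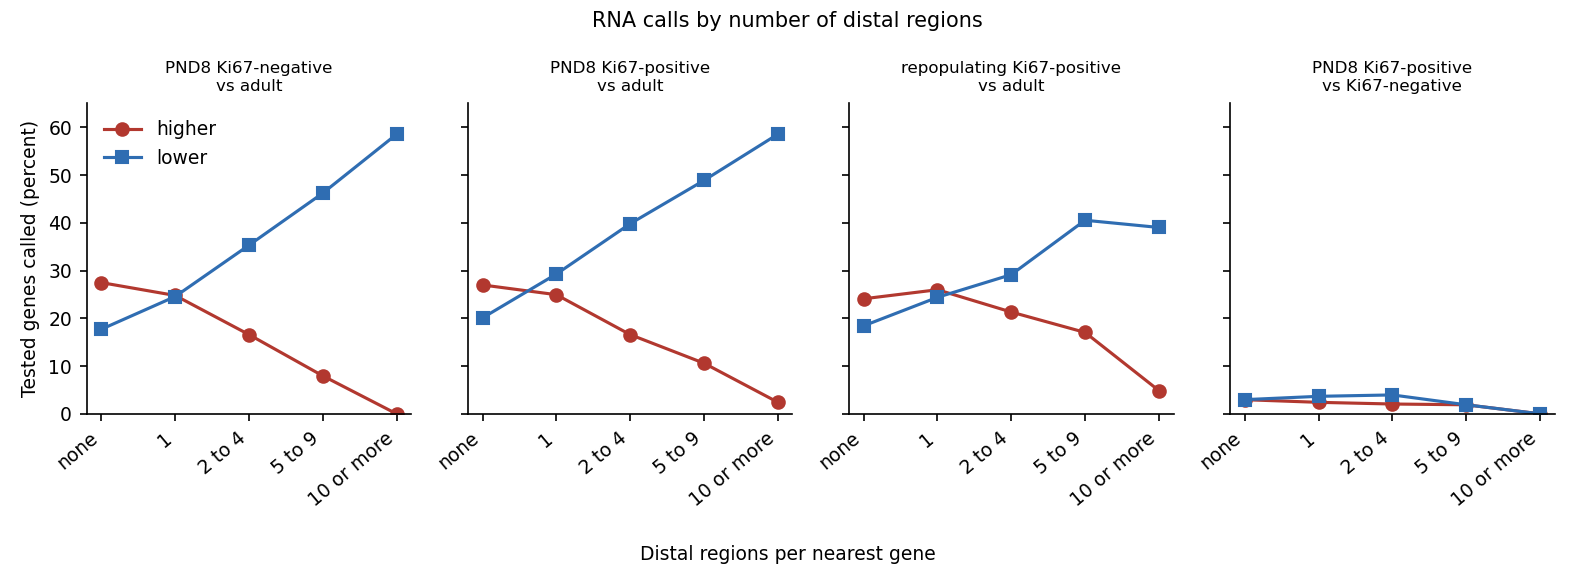
Percent of tested genes whose RNA rose (red) or fell (blue) in 4 comparisons, by the number of shared distal regions nearest to the gene (none, 1, 2 to 4, 5 to 9, 10 or more). In PND8 Ki67-negative cells the blue share goes from 17.7% to 58.5%, while few genes were called between Ki67-positive and Ki67-negative cells of PND8.

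RNA of nearest genes differed with the direction of H3K27ac. Of 785 genes whose regions were only higher or overlapping in PND8 Ki67-negative cells, 34.6% rose and 14.1% fell. Of 1506 whose regions were only lower or overlapping, 13.3% rose and 40.7% fell. The values were 34.7% and 16.5% against 13.2% and 44.3% in PND8 Ki67-positive cells, and 34.7% and 15.6% against 17.0% and 35.9% in repopulation. Between Ki67-positive and Ki67-negative cells of PND8, 3.78% rose and 2.72% fell among 662 genes with higher regions, and 1.79% and 4.69% among 1343 with lower regions.

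The lists below are read against all nearest genes, of which 30.7% fell and 20.1% rose in PND8 Ki67-negative, 35.1% and 20.4% in PND8 Ki67-positive, and 27.6% and 23.3% in repopulating cells; no list was tested as a whole. Among the 20 homeostatic genes with a shared distal region, 9 fell and 2 rose in PND8 Ki67-negative cells, 11 fell and none rose in PND8 Ki67-positive cells, and 11 fell and 1 rose in repopulation (edgeR's quasi-likelihood test). Tgfbr1 RNA was 1322 and 1351 CPM in adults, 956 and 749 in PND8 Ki67-negative and 857 and 900 in PND8 Ki67-positive cells, with a log2 fold change of -0.65 ± 0.11 (SE; adjusted p = 0.00034) in Ki67-negative cells. In repopulation Tgfbr1 was 1246 and 1261 CPM (adjusted p = 0.52), although its region was lower there. P2ry13 fell in repopulation by 0.50 ± 0.10 on the log2 scale (adjusted p = 0.00099).

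Of 24 lineage factors, 12 fell and 2 rose in PND8 Ki67-negative cells, 12 and 3 in PND8 Ki67-positive cells, and 14 and 2 in repopulation (edgeR's quasi-likelihood test). Mef2a fell by 0.57 ± 0.10 (adjusted p = 0.00064) in PND8 Ki67-negative cells. Spi1 RNA was 223 and 232 CPM in adults and 200 to 248 in the other 8 libraries, and no comparison passed the test (adjusted p = 0.30 to 0.85). Mef2c at PND8 did not pass either (log2 fold changes of -0.02 and 0.05), and in repopulation it fell by 0.30 ± 0.09 (adjusted p = 0.013), a call lost under some alternatives. Of 16 lysosomal and phagocytic genes, 8 rose and none fell in repopulation, among them Axl and Npc2, where 22 of the list's 47 regions were lower and 10 higher. Ctsb, cathepsin B, rose by 0.42 ± 0.09 (adjusted p = 0.0023) in PND8 Ki67-negative cells, where its strongest region was lower.

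Among NF-kB and cytokine genes, 4 of 14 fell and 3 rose in PND8 Ki67-negative cells, 8 and 3 in PND8 Ki67-positive cells, and 6 and 2 in repopulation (edgeR's quasi-likelihood test). Tnfaip3 was 143.5 and 142.8 CPM in adults, 72.6 to 92.9 at PND8 and 83.8 to 106.5 in repopulating Ki67-positive cells, with log2 fold changes of -0.80 ± 0.13 (adjusted p = 0.00025) in PND8 Ki67-negative cells and -0.59 (adjusted p = 0.0024) in repopulation. Il10ra fell by 0.60 (adjusted p = 0.00022) in PND8 Ki67-positive cells and differed by 0.11 in repopulation (adjusted p = 0.40). All 5 disease-associated genes rose in PND8 Ki67-negative cells and 3 in PND8 Ki67-positive cells. Csf1 was 64.1 and 61.2 CPM in adults, 182 to 223 at PND8, and 62.2 in both repopulating Ki67-positive libraries. Itgax rose at PND8 by 2.69 ± 0.17 (adjusted p = 5.4e-08), where its region was lower. RNA of cuprizone-treated mice was not analysed here.

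Of the 9 cell cycle genes with a shared distal region, 7 rose in each of the 3 comparisons with adult (edgeR's quasi-likelihood test), and 1, 0 and 1 fell. Of the 27 without one, 25, 25 and 26 rose in PND8 Ki67-negative, PND8 Ki67-positive and repopulating cells. Aurkb was 1.39 and 1.71 CPM in adults, 39.0 and 71.2 in PND8 Ki67-negative, 112 and 122 in PND8 Ki67-positive, and 96.7 and 133 in repopulating Ki67-positive cells. It rose from Ki67-negative to Ki67-positive cells by 1.08 ± 0.22 (adjusted p = 0.0092), a call lost without Ki67-positive replicate 2, while its region was lower in the Ki67-positive cells. Mki67 itself was 13.4 and 11 CPM in adults, 242 and 282 in PND8 Ki67-negative and 920 and 1107 in PND8 Ki67-positive cells. The interferon genes Zbp1 and Cxcl10 rose in repopulation, as did all 17 interferon genes without a shared distal region. Zbp1, a sensor of nucleic acids, was 2.78 and 3.54 CPM in adults and 39.1 and 44.5 in repopulating Ki67-positive cells (log2 fold change 3.72 ± 0.28, adjusted p = 2.3e-07). The stronger of its 2 regions, chr2:173235933-173237700, had 57.2 and 143.8 normalised tags in adults and 183.4 and 159.3 in repopulation. As deposited this was above both adult libraries, as were 39.6% of all regions. After centring, repopulating replicate 2 lay below adult replicate 2, so the libraries overlapped.

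Genes with wide H3K27ac differences and genes with the largest RNA changes were tested the same way (edgeR's quasi-likelihood test). Tgm2, Csmd3, Gpx3 and Tspoap1 were among the nearest genes with the largest RNA rise or fall. Their RNA changes are thus part of how they were chosen. Tgm2 RNA was 164.7 and 169.6 CPM in adults, 1.98 and 2.66 in PND8 Ki67-negative, 2.53 and 1.5 in PND8 Ki67-positive, and 195.7 and 207.3 in repopulating Ki67-positive cells. It fell by 6.13 ± 0.16 (adjusted p = 5.2e-11) in PND8 Ki67-negative cells. Between Ki67-positive and Ki67-negative cells of PND8 its RNA differed by -0.22 (adjusted p = 0.76), whereas all 4 regions were higher in Ki67-positive cells. Chsy1 fell by 1.51 ± 0.11 (adjusted p = 2.6e-07) in PND8 Ki67-negative cells and by 1.37 (adjusted p = 5.2e-07) in repopulation. Csmd3 was 276 and 242 CPM in adults and 0.92 to 4.46 at PND8, with a log2 fold change of -6.04 ± 0.23 (adjusted p = 1.2e-09) in Ki67-negative cells.

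In the other direction, Gpx3 RNA was 1.97 and 0.37 CPM in adults, 109 to 131 at PND8, 20.9 and 19.1 in repopulating Ki67-negative, and 33.0 and 31.1 in repopulating Ki67-positive cells (edgeR's quasi-likelihood test, adjusted p = 1.9e-09 in PND8 Ki67-negative cells). Gas7 was 3.24 and 2.44 CPM in adults, 105 to 141 at PND8, and 19.0 and 21.2 in repopulating Ki67-positive cells, a lower RNA level than at PND8 beside a higher H3K27ac level. Sept9 rose at PND8 by 2.20 ± 0.10 (adjusted p = 6.4e-09 in Ki67-negative cells). Tspoap1, beside the miR-142 hairpin, was 0.58 and 1.10 CPM in adults, 5.82 and 2.66 in PND8 Ki67-negative and 32.2 and 28.6 in PND8 Ki67-positive cells, a rise of 2.89 ± 0.26 (adjusted p = 3e-05) between the latter groups.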

How the data were processed

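Per the file headers, the authors called peaks with HOMER on each library separately, joining windows of 500 bp into wider regions for H3K27ac and asking for 4-fold or more over input at a local window of 10000 bp and a false discovery rate of 0.001. The deposited signal of a peak is its tag count normalised to 10000000 tags per library, per the file headers. The deposited fold over input (a ratio) and the peak score were made by HOMER, per the file headers; the fold was used to test a stricter list and the score to halve lists by rank, both as alternatives. In the H3K27ac lists the last columns stand in another order than their names, which was settled from the values. The deposited RNA counts were made with HOMER over exons of mm10 with at most 3 tags per position, per the file headers, which can hold down short abundant transcripts. The deposited TPM values were made with the same tool, per the file headers, and were used only for cell type markers. STAR 2.7.0f, Bowtie2 2.3.4.1 and HOMER 4.11 are named in the submitters' processing notes. ATAC-seq headers name no build or input, and their positions were read as mm10. For Rpb2 at PND8 the input was one made for H3K27ac, per the file headers.

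A level was the sum of the signal of all peaks that overlap a region by at least 1 bp, with peak width as called in each library, so that a wide peak counts in full at a narrow region. Differences are of group means of log2 levels, as deposited or centred on the library's median over all 15297 regions in every list; regions were counted as higher or lower where no library of one group overlapped the other group. RNA was tested with edgeR 4.0.16 (quasi-likelihood, TMM, filterByExpr) on 10 libraries in 5 groups in 1 fit, and adjusted by Benjamini-Hochberg over 12230 genes; DESeq2 1.42.0 was an alternative. The scripts were tested on simulated data with known answers. All 8099 members have a level in all 12 libraries; ATAC and Rpb2 ratios cover only those with a peak in every list of the assay, so regions that lost all signal are outside them.

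Members, gene lists and motifs were chosen with earlier results of these data known. Named are the strongest regions of each list, the highest, steadiest and most different regions, those at the limits of the rule, and the most changed nearest genes. Promoter, protein and genome sequence other than the RefSeq start windows and miRNAs was not used here. Replicate numbers are not stated to pair libraries, so the main fits have no block.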

Additional observations from a re-analysis of the deposited data

How the results depend on the processing

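The centred H3K27ac medians moved little with tags per kb, without members that share a peak and without members that hold a RefSeq start, all chosen after seeing the data: the widest move was in repopulation, from -0.20 to -0.13 per kb, with near regions at -0.03. The adult library used mattered more, as given above. With at least 8-fold over input in the other 11 lists, 2802 regions remained. The ATAC ratio at PND8 (-0.654) was -0.620 per kb, -0.668 for regions over 10000 bp from a start and -0.0593 centred; that of repopulation (-0.303) was -0.327, -0.311 and 0.0364, a turn of sign that follows from taking away the median of all regions. The Rpb2 ratio (0.394) was -0.0783 centred, 0.987 without adult replicate 1 and -0.226 without adult replicate 2; the cause was not tested. In the upper 0.5 of each list by score, ATAC shares were 82.6%, 78.0% and 87.0% for adult, PND8 and repopulating cells, and Rpb2 shares 20.1%, 10.7% and 49.9%, since fewer peaks enter. With 200 bp of overlap the Rpb2 share of adult replicate 1 was 41.1%; ATAC peaks and the Rpb2 peaks of PND8 are all narrower than that, so no such value exists for them. Without members that hold a RefSeq start the 3 Rpb2 shares were 40.2%, 21.9% and 71.9%. At a fold of at least 2, the nearest genes called numbered 478, 537, 446 and 46 in the 4 RNA comparisons, with 233, 224, 263 and 26 of them higher.

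Calls between Ki67-positive and Ki67-negative cells of PND8 (200 nearest genes) moved most: 398 with no filter on low counts, 94 with only the 2 groups in the fit, and 347 with a term for the header code in that fit of 2 groups, which could not be fitted against adult. With the replicate block, as if the numbers were paired, it was 376; header code and number coincide there. Leaving out 1 library gave 46 to 350, in fits where the lone library of an arm is assumed to vary like the others. RNA deviations of same-numbered libraries correlated at 0.00 to 0.03 in the comparisons with adult and at 0.35 here, across 12230 genes. For H3K27ac the paired difference equals the unpaired one by construction; in cuprizone Ki67-negative cells against adult, where same-numbered libraries correlated at -0.15, 2243 regions were higher and 2756 lower in both same-numbered pairs, and 2619 and 3049 in both crossed pairs. Among genes followed singly, calls at PND8 of P2ry13, Junb, Zfp36, Ctsb, Lgals3, Elmo1 and Adtrp, calls in repopulation of Mef2a, Mef2c, Lgmn, Tgm2, Sept9, Plek and Cd9, and calls between Ki67-positive and Ki67-negative cells of Aurkb, Upk1b and Chn2 were lost under at least 1 alternative, and none turned its sign.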
